A study of Homo sapiens with 4 samples.

Results

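The genes described here are 10 ligands, regulators and targets of the TGF-beta and BMP pathways: ID1, ID2, ID3, TGFBI, BAMBI, LTBP2, LTBP3, SMAD7, SKIL and TGFB1. They were taken by name from the array annotation, as the probe sets annotated to 1 of these symbols only, which gave 19 of the 54675 probe sets on the array and 10 of 19775 genes. Each gene is represented by its brightest probe set (highest mean on the log2 scale), and its other probe sets are given beside it. The samples were 4 Affymetrix arrays of MIA PaCa-2, an established line from a human pancreatic carcinoma. The ING3 cells carried FLAG-tagged, full-length ING3, a histone acetyltransferase complex subunit, in a lentiviral vector with the CMV/TO promoter, and the control cells carried a lentivirus for GFP. Both were stably selected and grown in medium with fetal bovine and horse serum, and the number of clones in each population is not given in the sources used here. The 2 arrays of each group (a and b) are technical duplicates of 1 cell population. Each p-value sets a difference against a spread between such duplicates, taken partly from the gene and partly from all genes of like signal. It says nothing about other cultures.

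The TGF-beta isoforms are secreted in latent complexes that LTBP proteins can tether to the matrix, and free ligands of the family, BMPs and activins included, join type I and type II receptors. The receptors phosphorylate SMAD2 and SMAD3 for TGF-beta and activin, or SMAD1, SMAD5 and SMAD9 for BMPs, and these act with SMAD4 on chromatin. The ID genes are classical BMP targets. Their proteins have a helix-loop-helix but no DNA-binding part, and they hold E proteins away from DNA. BAMBI, SMAD7 and SKIL restrain the pathway and are themselves targets of it. In pancreatic carcinoma the pathway is known both for growth arrest and for invasion, and SMAD4 is often lost.

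On its brightest probe set ING3 itself had a signal of 338 and 373 on control arrays a and b. It read 521 and 541 on ING3 arrays a and b, a difference that missed the threshold (adjusted p = 0.071 by limma). Whether this probe set reads the RNA made from the vector was not tested. Signals are MAS5 values in linear units, with the mean without the lowest and highest tails scaled to the same 500.1 on each array. Keratins of the labelled epithelial type were bright, while EPCAM and CDH1 were below the filter on dim genes. For ACTB, the 3' to 5' ratio, which rises as RNA degrades, was 2.58 on control array a and 1.80 to 2.05 on the other arrays. For GAPDH the same ratio hardly differed, at 0.93 on control array a and 0.90 to 0.92 on the other arrays. Control array a also had the highest median signal over all probe sets, 76.0 against 64.8 to 69.4.

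Of the 10 genes, 9 passed the filter on dim genes and were tested, and 3 rose in the ING3 cells: TGFBI, a secreted matrix protein, by 1.37-fold, ID2 by 1.47-fold and ID1 by 1.27-fold. None fell and 6 did not pass. A gene was called at an adjusted p under 0.05, and of all 12190 genes tested 1.03% rose and 0.476% fell by that rule. In 7 of the 9 both ING3 arrays lay above both control arrays, and in 1 (TGFB1) both lay below, against 24.3% and 24.9% of all genes tested. An unadjusted p under 0.05 was reached by 7 of the 9, against 17.7% of all genes. The median log2 difference, ING3 minus control, was 0.35 over the 9 and -0.0074 over all genes tested. The 10 genes were chosen with earlier results of these data known, so these shares cannot be read as an independent test. A change in how many cells express a gene and a change in its RNA per cell cannot be told apart in these bulk samples.

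**Figure D1:**
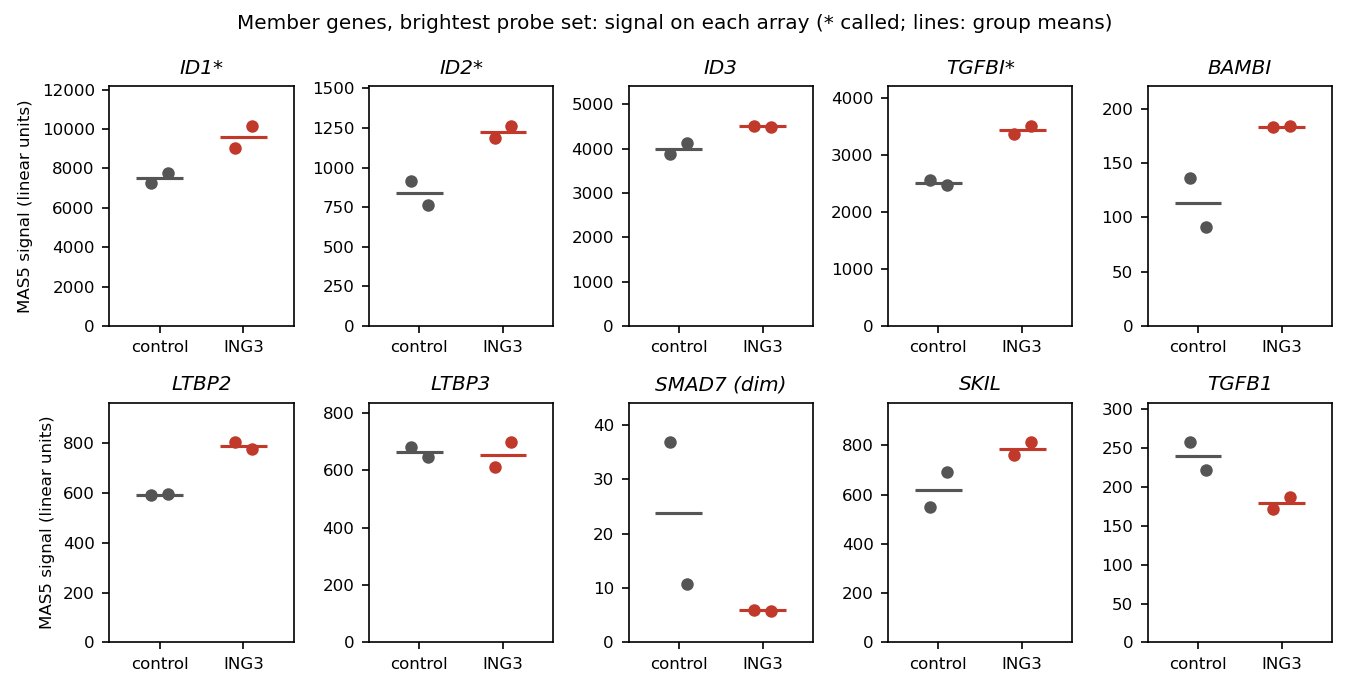
MAS5 signal in linear units (vertical axis, from 0) of the brightest probe set of each of the 10 genes on the 2 control and 2 ING3 arrays (points), with group means as lines and called genes starred. The groups do not overlap for any gene but LTBP3, and SMAD7, marked as dim, lies below the filter and was not tested.

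ID1 and ID2 rose, and ID3 had a higher mean without passing the test; for none of these genes did the groups overlap. ID1, an inhibitor of differentiation that is prominent in BMP responses, had a signal of 7281 and 7745 in control cells and of 9013 and 10156 in ING3 cells. The gap between the groups was wider than the gap between either pair of duplicates. The mean went from 7513 ± 328 to 9585 ± 808 (SD, n = 2 technical arrays), and the gene rose by 0.35 on the log2 scale (SE 0.070, limma adjusted p = 0.048).

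ID2, the family member known for its binding to the retinoblastoma protein as well as to E proteins, read 915 and 762 in control cells and 1190 and 1263 in ING3 cells on its brightest probe set. Its mean went from 838 ± 108 to 1227 ± 51.4 (SD, n = 2 technical arrays), and it rose by 0.55 on the log2 scale (SE 0.11, limma adjusted p = 0.045). The other ID2 probe set, of the _x_at kind that can cross-hybridise, read 141 and 115 in control cells and 285 and 417 in ING3 cells. On it the ING3 cells were 2.70-fold higher, a larger size than the 1.47-fold of the brightest probe set, and the difference between the sizes was not tested. Among all 27305 probe sets past the filter, of which 0.37% were called, this second ID2 probe set had an adjusted p of 0.058 (log2 difference 1.43, SE 0.24). In that wider fit neither ID1 (adjusted p = 0.092) nor the brightest ID2 probe set (adjusted p = 0.089) passed, and TGFBI did (adjusted p = 0.042). A further probe set, annotated to ID2 and to another symbol, was left out.

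ID3, often induced together with ID1, read 3878 and 4126 in control cells and 4514 and 4491 in ING3 cells. Its groups did not overlap, but the difference was small and not called (log2 difference 0.17, SE 0.063, adjusted p = 0.21). The unadjusted 95% interval of its log2 difference ran from 0.029 to 0.31. ID4, the remaining family member, was not among the 10 genes. It had overlapping groups, with 106 and 88.6 in control cells and 95.1 and 63.2 in ING3 cells.

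The calls for ID1 and ID2 sat close to the threshold. Each was called under 4 of 13 other settings, with log2 differences of 0.26 to 0.44 for ID1 and of 0.42 to 0.99 for ID2, positive in all 13. Without control array a the adjusted p was 0.35 for ID1 and 0.19 for ID2, without control array b it was 0.27 and 0.28, and without ING3 array b it was 0.081 and 0.098. Such a fit has 1 residual degree of freedom and assumes that the lone array varies like the other group, and without either control array only 2 of the 12190 genes were called at all. Of the 5 epithelial markers KRT8 and KRT19 rose, KRT18 was not called (log2 difference 0.13, adjusted p = 0.31), and EPCAM and CDH1 were below the filter, with means of 31.9 and 10.9 in control cells and 21.0 and 7.33 in ING3 cells. The summed signal of the 5 markers was 39924 and 40095 in control cells and 45090 and 48174 in ING3 cells. The part of this in the ID differences was not tested.

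TGFBI, named for its induction by TGF-beta and a ligand for integrins in the matrix, had the lowest adjusted p of the 10 genes. It read 2563 and 2473 in control cells and 3375 and 3516 in ING3 cells, so the duplicates lay close together and the groups well apart. Its mean went from 2518 ± 63.8 to 3446 ± 99.4 (SD, n = 2 technical arrays), and it rose by 0.45 on the log2 scale (SE 0.066, limma adjusted p = 0.017). It ranked number 45 of the 12190 genes by p. TGFBI was called under 10 of 13 other settings, at log2 differences between 0.42 and 0.48. It lost its call without control array a (adjusted p = 0.20), without control array b (adjusted p = 0.22) and in a fit without an intensity trend (adjusted p = 0.24).

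The sequence before the start site is shown for the 3 genes that rose and for ID3, an ID gene whose groups also lay apart, because SMAD complexes act through short elements in such regions. Promoter windows matched all 10 genes in the RefSeq table (GRCh38.p14). Those of ID1 (chr20:31605039-31605288, plus strand), ID2 (chr2:8681806-8682055, plus strand), ID3 (chr1:23559502-23559751, minus strand) and TGFBI (chr5:136028738-136028987, plus strand) are the 250 bases before the start, 5′ to 3′, with motif matches in capitals.
ID1: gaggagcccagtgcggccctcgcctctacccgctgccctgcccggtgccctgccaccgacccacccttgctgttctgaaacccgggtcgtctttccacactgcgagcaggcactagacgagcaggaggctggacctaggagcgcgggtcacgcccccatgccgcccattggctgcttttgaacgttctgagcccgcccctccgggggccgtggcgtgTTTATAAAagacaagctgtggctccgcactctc
ID2: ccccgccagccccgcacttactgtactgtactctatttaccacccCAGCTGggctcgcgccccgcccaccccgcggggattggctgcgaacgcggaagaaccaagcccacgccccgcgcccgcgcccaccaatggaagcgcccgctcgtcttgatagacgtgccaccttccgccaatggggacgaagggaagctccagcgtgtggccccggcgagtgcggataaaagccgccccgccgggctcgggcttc
ID3: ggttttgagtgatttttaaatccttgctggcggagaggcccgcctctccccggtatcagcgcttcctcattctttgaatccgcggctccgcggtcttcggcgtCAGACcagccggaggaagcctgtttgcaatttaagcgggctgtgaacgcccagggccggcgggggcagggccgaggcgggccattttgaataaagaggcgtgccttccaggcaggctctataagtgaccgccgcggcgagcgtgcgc
TGFBI: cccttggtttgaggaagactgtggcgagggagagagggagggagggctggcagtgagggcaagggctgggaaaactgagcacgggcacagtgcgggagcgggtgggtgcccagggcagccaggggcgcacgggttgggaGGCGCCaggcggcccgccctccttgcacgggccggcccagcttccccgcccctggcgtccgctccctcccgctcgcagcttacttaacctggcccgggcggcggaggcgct
The letters searched, on both strands, were the SMAD box CAGAC, its palindromic form GTCTAGAC, the GC-rich element GGCGCC of BMP-responsive genes, the E-box CANNTG that E proteins bind, and the TATA element TATAAA. The palindrome, the GC-rich element and the E-box pattern read the same on both strands, and a TATAAA on one strand can overlap one on the other, as in ID1. Of all 35116 windows of this length, 38% held CAGAC, 0.182% GTCTAGAC, 16.4% GGCGCC, 61.8% CANNTG and 10.7% TATAAA. Of these motifs the ID1 window held only the TATA element, which begins 31 bases before the start on the plus strand. The ID2 window held 1 E-box at 205 bases, the ID3 window 1 CAGAC at 147 bases, and the TGFBI window 1 GGCGCC at 111 bases before the start. No motif was shared by the 4 windows. A match describes letters in this window and not binding. Sequence outside the 250 bases was not searched, so an absent match says nothing about elements further away.

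Among the ligand genes, TGFB1, the founding ligand, was lower rather than higher. It read 257 and 221 in control cells and 172 and 187 in ING3 cells on its brightest probe set. Both ING3 arrays lay below both control arrays, but the difference was not called (log2 difference -0.41, SE 0.20, adjusted p = 0.32). With the filter at the 75th percentile TGFB1 was too dim to be tested. Its second probe set was just below the filter and overlapped, with 82.5 and 52.9 against 53.0 and 69.8.

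The latent TGF-beta binding proteins differed between probe sets. LTBP2, a matrix protein related to the latent TGF-beta binders that does not itself bind latent TGF-beta, read 591 and 593 in control cells and 802 and 774 in ING3 cells. These were the tightest control duplicates of the 10 genes. The difference was 1.33-fold and not called (log2 difference 0.41, SE 0.10, adjusted p = 0.090). Its other probe set read 495 and 636 against 590 and 571, with overlapping groups and a log2 difference of 0.048 (SE 0.14).

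LTBP3, which holds TGF-beta in its latent complex, showed no separation on its brightest probe set, with 680 and 646 in control cells and 612 and 697 in ING3 cells. The unadjusted 95% interval of its log2 difference was -0.28 to 0.24. A second LTBP3 probe set also overlapped, with 463 and 649 against 743 and 563. A further, dim probe set was lower on both ING3 arrays, from 132 and 137 to 38.0 and 24.6, which is 4.30-fold lower. It was just below the filter and had no test, so the LTBP3 probe sets give no single direction.

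BAMBI, a pseudoreceptor that lacks a kinase and blunts receptor signalling, had the largest log2 difference of the 9 tested genes and also a wide error. It read 136 and 90.7 in control cells and 183 and 184 in ING3 cells. These signals passed the filter at about 64.6, but BAMBI was too dim to be tested with the filter at the 75th percentile. The ING3 duplicates were nearly equal and the control duplicates far apart, and the gene was not called (log2 difference 0.72, SE 0.27, adjusted p = 0.22). Without control array a the log2 difference was 1.01 and without control array b it was 0.43.

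SKIL (SnoN), a nuclear corepressor that binds SMADs, read 548 and 691 in control cells and 761 and 811 in ING3 cells on its brightest probe set. All ING3 values were above all control values, and the gene was not called (log2 difference 0.35, SE 0.13, adjusted p = 0.21). Its log2 difference was 0.19 without control array a and 0.52 without control array b. The 4 other SKIL probe sets were below the filter, with signals of 2.92 to 75.4 and overlapping groups. SMAD7, the inhibitory SMAD that brings ubiquitin ligases to the receptors, was also dim. Its 1 probe set read 36.8 and 10.8 in control cells and 5.94 and 5.85 in ING3 cells, below the filter at a signal of about 64.6, and it was not tested.

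**Figure D2:**
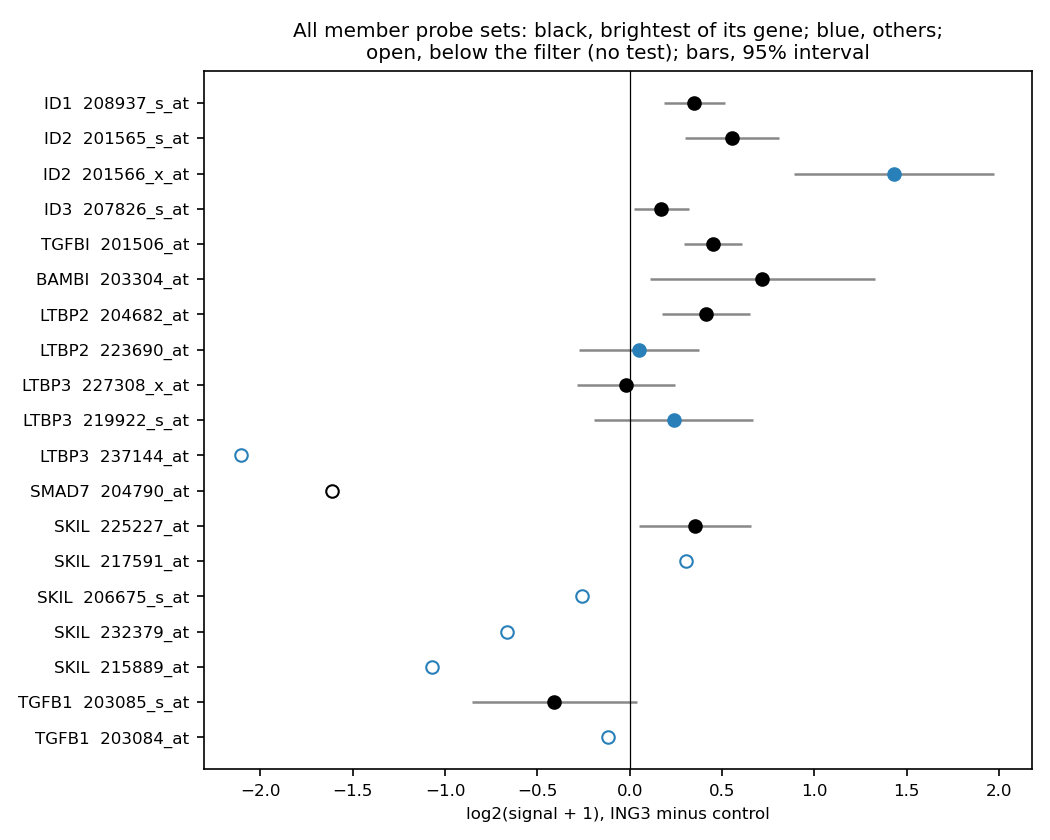
Log2 difference, ING3 minus control (horizontal axis), for each of the 19 probe sets of the 10 genes, with the brightest of each gene in black, the others in blue, those below the filter open, and unadjusted 95% intervals as bars. The second ID2 probe set lies at 1.43 and the dim LTBP3 probe set at -2.10, away from the brightest probe sets of the same genes.

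The rest of the pathway was taken from a list of 80 genes in 7 roles. Of these, 75 were analysed here, 56 passed the filter, 2 rose, 0 fell and 54 did not pass, with a median log2 difference of 0.040. An unadjusted p under 0.05 was reached by 21 of the 56, against 17.7% of all genes tested. This list, too, was chosen with earlier results of these data known. The 2 that rose were GDF15, a divergent stress-induced family ligand, and BMP1, a metalloprotease that cleaves matrix proteins and the BMP antagonist chordin. GDF15 read 456 and 436 in control cells and 702 and 823 in ING3 cells on a probe set of the _x_at kind (log2 difference 0.77, SE 0.12, adjusted p = 0.024). Its other probe sets were below the filter. BMP1 read 761 and 816 against 1108 and 1170 (log2 difference 0.53, SE 0.095, adjusted p = 0.031). Its 2 other probe sets past the filter had overlapping groups and log2 differences of -0.092 and -0.0051. In the limma fit over all probe sets neither GDF15 (adjusted p = 0.054) nor BMP1 (adjusted p = 0.072) passed on these probe sets. Neither was called without control array a, without control array b or without ING3 array b.

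Most receptor genes averaged lower in ING3 cells and most inhibitor genes averaged higher, and none of either role was called. The counts of higher and lower means were the same after quantile normalization and cyclic loess, where the receptor median moved to -0.064 and -0.066. Of the 7 tested ligand genes other than TGFB1, 2 had a higher and 5 a lower mean, with a median log2 difference of -0.20 (3 higher and 4 lower under either normalization). BMP7, a BMP ligand, had a log2 difference of -0.25 (SE 0.12) and did not pass. Of 9 tested receptor genes, 0 were called, 2 had a higher and 7 a lower mean, and the median was -0.17. In 5 of the 9 both ING3 arrays lay below both control arrays, against 24.9% of all genes tested. Of all 12190 genes tested, 5891 had a higher and 6299 a lower mean. TGFBR1, the type I receptor of TGF-beta, read 2102 and 2072 against 2101 and 1984, and the coreceptor TGFBR3 read 2085 and 2231 against 2019 and 1643 (log2 difference -0.24, SE 0.10), called without ING3 array a. TGFBR2, the type II receptor that TGF-beta binds, was dim, with 92.7 and 30.5 in control cells and 32.5 and 36.5 in ING3 cells, and was not tested.

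All 7 SMAD and anchor genes passed the filter and none was called; their median difference was 0.061 on the log2 scale, within a range of -0.12 to 0.27. SMAD4, the common partner, was measured at 1947 and 1849 in control cells and 1973 and 2043 in ING3 cells (log2 difference 0.081, SE 0.074). SMAD2, a TGF-beta effector, had a log2 difference of -0.0098 (SE 0.069). Of 7 tested genes for ligand storage and activation 3 had a higher mean and 4 a lower one, which became 4 and 3 under either normalization, and ITGAV, an integrin chain that activates latent TGF-beta, had a log2 difference of -0.17 (SE 0.068). ITGB8, its partner chain, read 833 and 825 against 616 and 422 and was not called (log2 difference -0.70, SE 0.16, adjusted p = 0.076), though it was called with the array letter (a or b) as a replicate block and without ING3 array a.

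Of 12 tested inhibitors 10 had a higher mean and 2 a lower one, and 0 were called. In 7 of the 12 both ING3 arrays lay above both control arrays, against 24.3% of all genes tested. Over the 12 inhibitors the median log2 difference was 0.21. PMEPA1, a feedback inhibitor that binds SMADs, read 445 and 474 in control cells and 660 and 895 in ING3 cells and missed the threshold narrowly (log2 difference 0.74, SE 0.15, adjusted p = 0.0501). Its 2 other probe sets were also higher on both ING3 arrays, by 1.42-fold and 1.82-fold. NEDD4L, a ubiquitin ligase for activated SMADs, read 365 and 420 against 572 and 704 (adjusted p = 0.054). Its other 3 probe sets past the filter had log2 differences of 0.85, 0.14 and -0.0087. Both PMEPA1 and NEDD4L were called with the filter at the 75th percentile, with the block and without ING3 array a. The brightest inhibitor probe sets, those of SMURF2, a ubiquitin ligase, and TWSG1, a BMP-binding protein, had log2 differences of 0.050 (SE 0.059) and 0.14 (SE 0.058).

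Of 12 tested target genes besides the 10 genes, 7 had a higher and 5 a lower mean, 0 were called, and the median log2 difference was 0.058 (0.16 under either normalization). CCN2, a matricellular protein that is also a YAP target, read 123 and 117 against 244 and 244 (log2 difference 1.02, SE 0.21, adjusted p = 0.054). KLF10, a transcription factor first described as TGF-beta-inducible, read 2985 and 3064 against 3769 and 3682 (log2 difference 0.30, SE 0.063, adjusted p = 0.054). CCN2 was called after quantile normalization, after cyclic loess and with the replicate block, and KLF10 with the filter at the 75th percentile and with the block. GADD45B, a stress sensor, had a log2 difference of 0.34 (SE 0.13). COL1A1, a collagen chain and fibroblast marker, was lower, at 274 and 288 against 234 and 181 (log2 difference -0.45, SE 0.20, adjusted p = 0.27). Of 6 fibroblast markers 4 passed the filter and 0 were called, and their summed signal was 6479 and 6261 in control cells and 5385 and 5754 in ING3 cells. None was at 0. COL1A1 is itself 1 of these markers. COL1A2, also a collagen chain, gave most of the sum, at 4648 and 4548 in control cells and 3749 and 3996 in ING3 cells. The sum is therefore not separate from the collagen values. The other fibroblast markers were not lower as a set. COL3A1 (log2 difference -0.036, SE 0.086) and DCN (log2 difference -0.13, SE 0.42) had overlapping groups. Below the filter, LUM was higher on both ING3 arrays, at 7.30 and 5.10 against 48.6 and 28.5, and PDGFRB overlapped. Of the E proteins that ID proteins bind, TCF12 had a log2 difference of 0.015 (SE 0.060) and TCF3 one of 0.28 (SE 0.099, adjusted p = 0.20; called without ING3 array a), and TCF4 was below the filter.

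**Figure D3:**
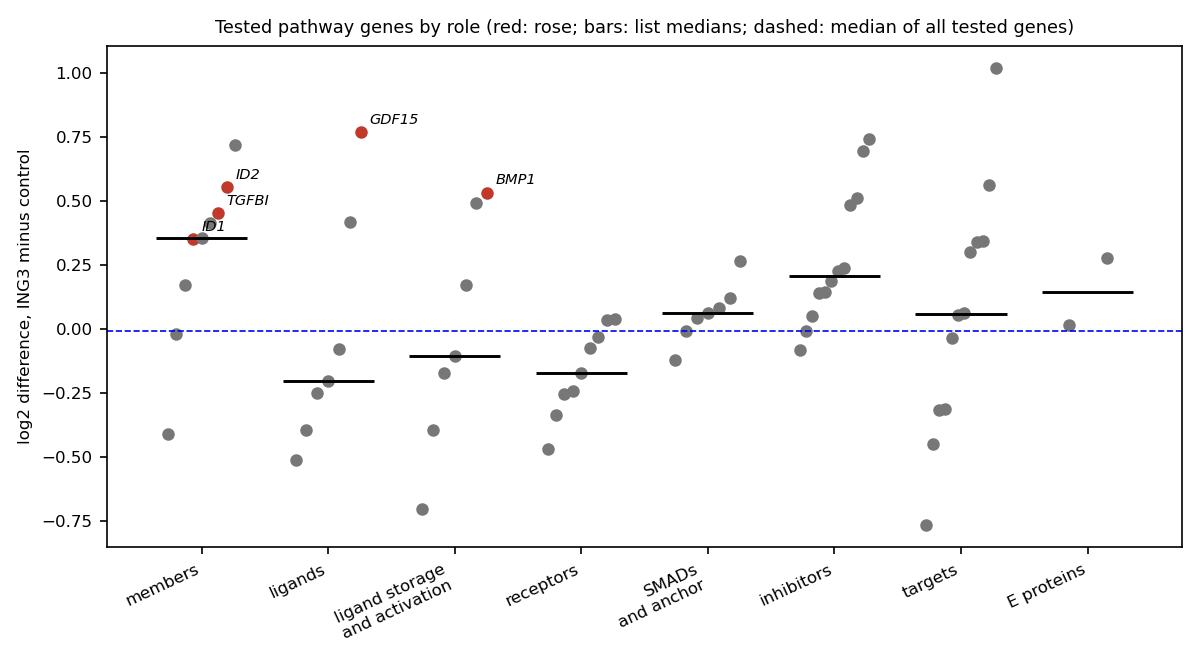
Log2 difference, ING3 minus control (vertical axis), of each tested gene among the 10 genes (labelled members) and in 7 roles of the pathway, with genes that rose in red, list medians as bars and the median of all tested genes as a dashed line. The receptor median is -0.17 and the inhibitor median 0.21, and no inhibitor or receptor was called.

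**Figure D4:**
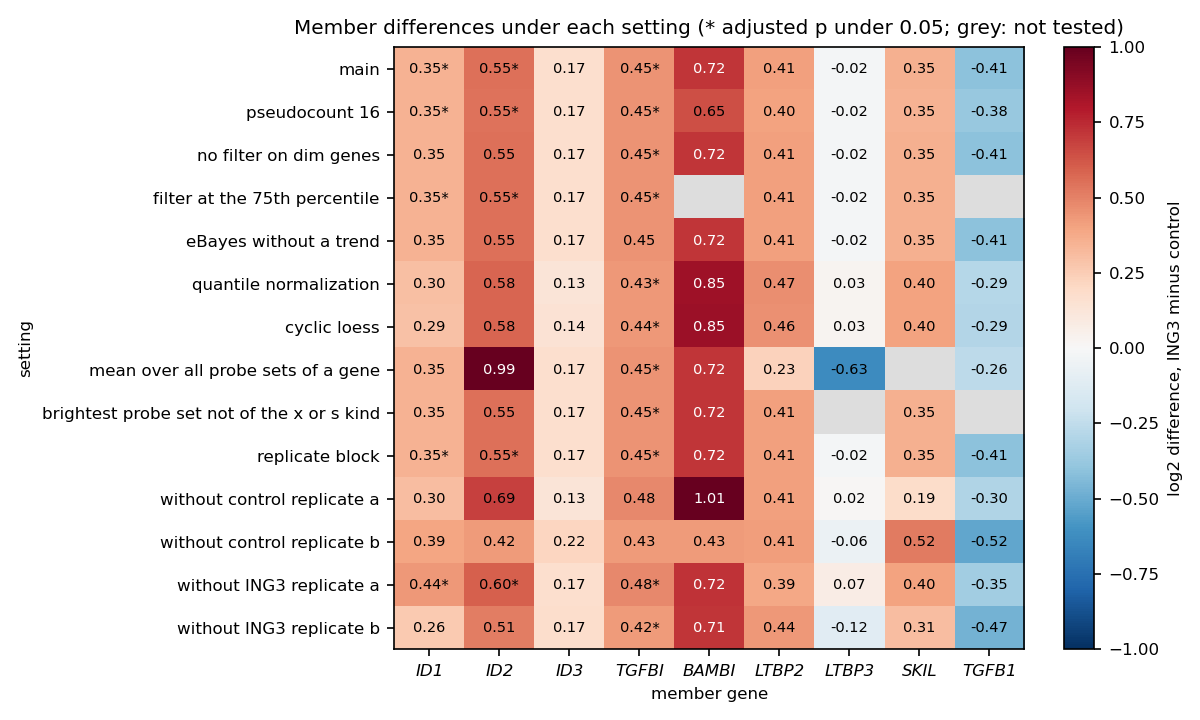
Log2 difference, ING3 minus control, of the 9 tested genes (columns) under the analysis as reported and each alternative (rows), with stars where the adjusted p was under 0.05 and grey where the gene was not tested. ID1, ID2, ID3, TGFBI, BAMBI, LTBP2 and SKIL are positive and TGFB1 negative in every row that tested them, while LTBP3 changes sign and the stars of ID1 and ID2 are absent from most rows.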

How the data were processed

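Each group was measured on 2 1-colour arrays, which are technical duplicates of 1 cell population; whether a and b were separate RNA preparations is not given in the sources used here. The deposited table holds linear signal intensity values that the authors computed in Expression Console by MAS5, per the submitters' processing notes, which name no version. MAS5 had scaled the arrays to a common level, no detection calls were used, and precision is limited by the number of arrays. Fold changes and differences were taken on the log2(signal + 1) scale. The added 1 makes differences of dim genes a little smaller. Dim probe sets also varied between duplicates, as SMAD7 did at 36.8 and 10.8 in control cells, so their differences are uncertain in size. Control probe sets (62) were left out. The brightest of the probe sets with 1 symbol stood for a gene, and genes whose mean reached the median of all probe sets were tested two-sided with limma 3.58.1 under R 4.3.3 (lmFit, then eBayes fitting an intensity trend, no covariates), with Benjamini-Hochberg adjustment over all genes tested. The procedure was tested on simulated data. Their noise was drawn to follow a smooth trend with signal, so they cannot judge the choice to fit an intensity trend. Other probe sets were taken from the same fit over all probe sets past the filter. With 2 arrays against 2, an exact permutation test cannot go below p = 0.33 and was not used.

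The 10 genes and the lists were chosen with earlier results of these data known. Named by rule were the 10 genes, called genes of the wider list and the 2 genes of highest mean signal per role. ID4, TGFBR2, ITGB8, PMEPA1, NEDD4L, CCN2, COL1A1 and TCF4 were named after their values were seen. Of the 80 genes of the wider list, 5 were not analysed here. Of 4 leukocyte, 3 endothelial and 4 pancreatic acinar markers, 2, 2 and 0 passed the filter and none was called. Alternatives were another pseudocount, other filters, normalization between arrays, other choices of probe set, no intensity trend, the array letter as a replicate block, and each array left out.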

Additional observations from a re-analysis of the deposited data

How the results depend on the processing

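The analysis as reported called 3 of the 10 genes and 2 of the wider list. With a pseudocount of 16 both counts were unchanged, and with the filter at the 75th percentile the counts were 3 and 5. Without a filter they were 1 and 0, and without an intensity trend 0 and 0, where limma called 0 genes of all those tested (1686 at an unadjusted p under 0.05, 6 of the 10 genes among them). Quantile normalization and cyclic loess each called 1 of the 10 (TGFBI) and 3 of the wider list. The mean over a gene's probe sets called 1 and 0, and preferring probe sets not of the _x_at or _s_at kind, where a gene had one, called 1 and 1 (ID1, ID2 and ID3 had none and kept theirs). Leaving out 1 array gave 0 to 3 of the 10 and 0 to 7 of the wider list; each control array left out gave 0 and 0 (2 genes of all tested were called in each case). Of the other probe sets of the 10 genes, 0 were called as reported (1 at an unadjusted p under 0.05), and 1, the second of ID2, was called after quantile normalization and with the replicate block. With the letter a or b as a replicate block the counts were 3 and 7, and 442 genes in all against 183. The differences between arrays a and b correlated at 0.029 between the groups across genes, which are not replicates. That shows little difference shared by letter, but it does not settle whether the letters pair the arrays. LTBP3 changed sign, at a log2 difference of 0.030 after quantile normalization and 0.029 after cyclic loess, and ran from -0.12 to 0.073 with 1 array left out. The mean over its probe sets, which includes the dim one, gave -0.63 (adjusted p = 0.18). The cause of the sign changes was not tested. Of the other 8 tested genes each kept its sign under every setting that tested it. Over all genes, 183 were called as reported, 54 without a filter, 115 after quantile normalization, 37 with the mean over probe sets, 2 without control array a, 2 without control array b and 305 without ING3 array a. Dim probe sets limit what can be read for SMAD7 and for the weaker probe sets of SKIL, TGFB1 and LTBP3.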
